A study of Homo sapiens with 6 samples.

Results

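The 49 genes described here act in the G2 phase of the cell cycle and in mitosis: cyclins and their kinase, mitotic kinases, spindle checkpoint and kinetochore proteins, motors, and the proteins that degrade mitotic regulators. Members were named by gene symbol, and each was represented by the probe set of that symbol alone with the highest mean signal over all arrays. All 49 were found among 19775 genes with a probe set of their own, and all 49 lay in the 12431 genes that passed the filter on dim signals. The filter used the mean over all 6 arrays, so no group decided it.

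Total RNA was measured on Affymetrix whole-genome expression arrays in VCaP, an androgen receptor-positive prostate cancer cell line with the TMPRSS2/ERG fusion, grown in DMEM with 10% FBS. The cells received SOX9i-A or SOX9i-B, 2 independent SOX9 siRNAs called siRNA A and siRNA B here, or a non-targeting control siRNA (NTC), and were harvested after 72 h. All 3 groups carry the fusion, come from the same line and were transfected transiently, with 2 arrays each that the design calls biological duplicates. The study asks what loss of SOX9, a SOX family transcription factor, does to gene expression in prostate cancer cells, and 2 siRNAs to the same transcript allow their effects to be set side by side.

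The transition from G2 into mitosis is driven by cyclin B bound to the kinase CDK1, which CDC25 phosphatases switch on and which Polo-like and Aurora kinases support. The spindle checkpoint then holds back the ubiquitin ligase APC/C and its activator CDC20 until kinetochores are attached. After that, securin and the cyclins are degraded, separase splits sister chromatids, and the cell divides. Transcripts of these genes rise together in G2 and mitosis, largely through MuvB complexes with B-MYB and FOXM1, and are held down in resting cells by the related DREAM complex. In bulk RNA, fewer cells in G2 and mitosis and less RNA of these genes per cell cannot be told apart.

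MuvB complexes bind the cell cycle genes homology region (CHR), often near CCAAT boxes bound by NF-Y, so the promoters of these genes show what they share in sequence. RefSeq promoter windows (GRCh38.p14, 250 bases before to 50 bases after the start, both strands searched) were found for 42 of the 49 genes, 55 windows in all. A CHR, written TTTGAA or TTCGAA, lay in 37 of 55 windows, 67.3%, against 16.4% of the 35116 windows of all genes. CCAAT was found in 39, 70.9% against 34.6%, and both in 29, 52.7% against 6.38%. An E2F-like motif, written TTTGGCG, with TTTCGCG as the second form and TTTCCCG as the third, lay in 8 windows, 14.5% against 7.21%. These counts describe the windows, and a match is not a measured binding site. The 120 bases before the start are shown for 5 members: MKI67 and KIF23, with the widest gaps between the siRNAs, CDC20, with the highest fold change against control, PLK1, with all 4 SOX9 siRNA arrays above control, and HMMR, with the narrowest gap. Capitals mark the CHR and CCAAT matches, given 5′ to 3′ on the strand of the gene. In MKI67 a CHR overlaps a reverse CCAAT, and in HMMR both CHR matches adjoin and a pair of CCAAT matches overlap.
MKI67 (chr10:128126424-128126543, minus strand): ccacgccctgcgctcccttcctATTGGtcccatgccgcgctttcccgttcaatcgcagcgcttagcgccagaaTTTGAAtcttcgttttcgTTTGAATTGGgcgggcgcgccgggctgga
KIF23 (chr15:69414229-69414348, plus strand): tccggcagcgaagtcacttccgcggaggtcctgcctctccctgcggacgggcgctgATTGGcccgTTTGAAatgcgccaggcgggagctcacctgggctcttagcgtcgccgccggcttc
CDC20 (chr1:43358861-43358980, plus strand): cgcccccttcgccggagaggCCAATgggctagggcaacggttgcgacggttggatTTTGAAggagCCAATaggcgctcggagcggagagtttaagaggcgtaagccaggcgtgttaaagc
PLK1 (chr16:23678769-23678888, plus strand): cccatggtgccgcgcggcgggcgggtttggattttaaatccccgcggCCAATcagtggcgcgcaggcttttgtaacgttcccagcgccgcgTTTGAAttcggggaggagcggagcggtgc
HMMR (chr5:163460512-163460631, plus strand): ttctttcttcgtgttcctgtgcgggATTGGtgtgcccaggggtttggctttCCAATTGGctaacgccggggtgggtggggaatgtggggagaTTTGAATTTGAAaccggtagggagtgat

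Before the members, the arrays themselves were compared. Signal of SOX9, the targeted gene, was 1108 and 673 under siRNA A, 609 and 333.5 under siRNA B and 1469 and 1126 in control (replicates 1 and 2 in this order throughout), so all 4 SOX9 siRNA arrays were below both control arrays, most clearly under siRNA B. The log2 fold change for both siRNAs, -1.02 (SE 0.29), missed the threshold (limma adjusted p = 0.434). The arrays as deposited did not share 1 level: relative to the control mean, the median of all tested genes was -0.01 and -0.08 under siRNA A, -0.17 and 0.13 under siRNA B and -0.07 and 0.07 in control. The ratio of 3' to 5' ACTB signal, a sign of RNA quality, was 3.53 and 3.79, 3.34 and 2.91, and 3.07 and 3.15 in the same order. That of GAPDH was 1.10 and 1.19, 1.11 and 1.11, and 1.05 and 1.04. The part of these ratios in the results was not tested. All 8 measured VCaP and luminal prostate markers, KLK2, KLK3, TMPRSS2, ERG, HOXB13, KRT8, KRT18 and EPCAM, had signals from 569 to 17513. Of 14 basal, fibroblast, leukocyte and endothelial markers, 10 had a mean below the filter signal of 22. The summed signal of 5 fibroblast markers was 66.2 to 133.5 under siRNA A, 258 to 278 under siRNA B and 134 to 195 in control, with COL1A1 the brightest of the 5 in every array, and its part in the results was not tested.

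The 49 genes were high under siRNA A and low in 1 array of siRNA B. Their median level, as log2(signal + 16) minus the control mean of each gene, was 0.19 and 0.56 under siRNA A, -0.43 and 0.16 under siRNA B, and -0.13 and 0.13 in control. Replicate 2 of siRNA A was the highest of the 6 arrays for 38 of 49 genes, against 9.33% of all tested genes, and replicate 1 of siRNA B the lowest for 44, against 32.4%. After each array was centred on its own median, these counts were 38, against 13.9%, and 40, against 21.1%, and the members' medians were 0.25 and 0.63, -0.31 and 0.10, and -0.08 and 0.08.

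**Figure D1:**
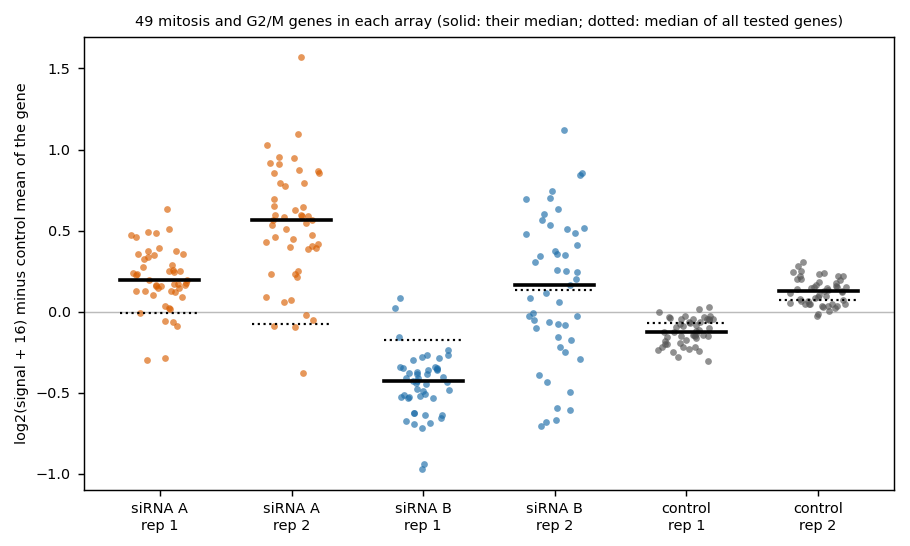
Level of each of the 49 genes in each array, as log2(signal + 16) minus the mean of the gene in the 2 control arrays (y axis), by array (x axis); each point is a gene, the solid bar the median of the 49 and the dotted bar the median of all 12431 tested genes. The siRNA A arrays have medians of 0.19 and 0.56, replicate 1 of siRNA B one of -0.43, and replicate 2 of siRNA B spreads over both sides of the control level.

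The mean of both siRNAs was close to control. For both siRNAs against control, 34 of 49 genes had a positive log2 fold change (44.9% of all tested genes did), with a median of 0.13 against -0.04 for all. In limma, 0 of 49 were called at an adjusted p below 0.05, and 0.0402% of all genes were. At an unadjusted p below 0.05 there was 1, CDK1, which was lower, where 7.75% of all genes reached that level and 5.58% were lower. The replicate block called 0 members (3.53% of all genes), and the block with centred arrays 1, CDC20 (4.56%). The count of 34 was 22 without replicate 2 of siRNA B (median -0.025). It was 11 without replicate 2 of both siRNAs (median -0.13) and 40 without replicate 1 of both (median 0.38). These fits kept both control arrays, where the members' median level was -0.13 and 0.13. They therefore set siRNA arrays of 1 number against controls of both, and cannot show on which replicate the direction of the joint value rests. Without control replicate 1 the count was 25 (median 0.0017).

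The clearest difference was between the siRNAs. All 49 genes had a higher mean under siRNA A than under siRNA B, where 45.5% of all tested genes did, with a median difference of 0.47 on the log2 scale against -0.03 for all genes. Both siRNA A arrays were above both siRNA B arrays for 26 of 49, against 15.7% of all genes, and for 30 with arrays centred on their medians, against 19.3%. The reverse held for 0, against 15.2%, and for 0 after centring, against 16.5%. Compared within the replicate numbers, siRNA A was above siRNA B in both for 46 of 49, against 26.3% of all genes, or 47 after centring, against 32.8%. The 3 exceptions without centring were CDC25C, NEK2 and HMMR. The differences ran from 0.11 for HMMR to 1.03 for MKI67. In limma 0 of 49 differences passed the adjusted test (0.0965% of all genes did), 15 had an unadjusted p below 0.05, all of them higher under siRNA A. Of all genes 8.25% had such a p, and 4.23% in that direction. With the replicate number as a block, 2 passed, MKI67 and KIF23, against 2.9% of all genes, and with the arrays also centred 15 passed, against 4.83%.

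Within the replicate numbers, siRNA A exceeded siRNA B for 49 of 49 genes in replicate 1 (70.4% of all genes), with a median of 0.63 against 0.15 for all, and for 46 in replicate 2 (30.5%), with a median of 0.37 against -0.22. Leaving out 1 siRNA B array breaks a pair, since both siRNA A arrays are then set against 1 array of the other number. Without replicate 1 of siRNA B, 35 of 49 genes were higher under siRNA A, with a median of 0.19 against -0.18 for all genes. Then 1 member, TOP2A, passed (limma adjusted p = 0.0488), against 2.34% of all genes. It also passed against control under siRNA B (limma adjusted p = 0.0444), against 8.06%. Without replicate 2 of siRNA B, all 49 were higher and the median was 0.80. Each of the scaling alternatives (quantile normalization, median centring and a common trimmed mean) left all 49 higher, with medians from 0.49 to 0.51.

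**Figure D2:**
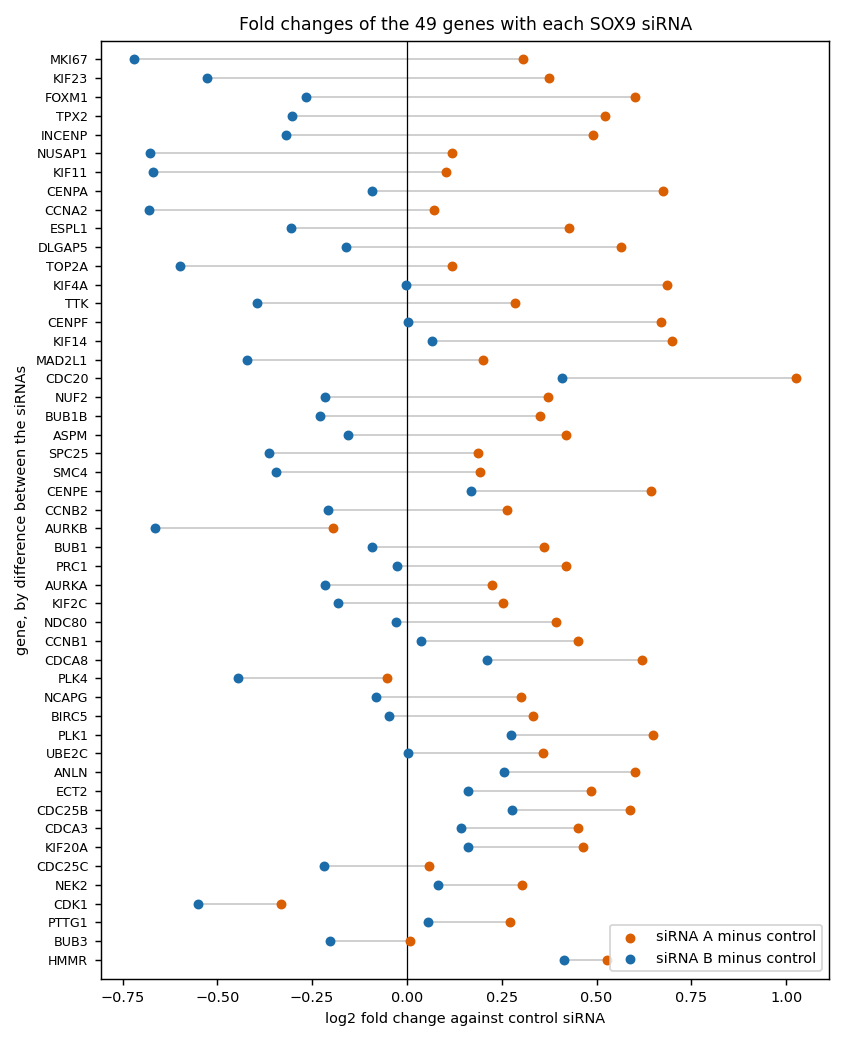
Log2 fold change against control siRNA (x axis) of each of the 49 genes (y axis, ordered by the difference between the siRNAs), under siRNA A in orange and siRNA B in blue; each point rests on 2 arrays against the same 2 control arrays. Every orange point is to the right of its blue one, from a gap of 1.03 for MKI67 to 0.11 for HMMR.

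Against control, siRNA A and siRNA B share the same control arrays, so their values stand side by side. With siRNA A, 46 of 49 genes had a positive log2 fold change (43.1% of all genes), with a median of 0.37, and both arrays were above both controls for 34, against 14.4%, or 38 after centring, against 22.7%. Both were below for 1, CDK1, against 23.8%, or 18.1% after centring. The 3 exceptions were CDK1, AURKB and PLK4. With siRNA B, 33 of 49 were negative and 16 positive (47.6% of all genes were positive), with a median of -0.16, and both arrays were below both controls for 13, against 26.2% of all genes, or 18 after centring, against 25.4%. Both were above for 2, PLK1 and HMMR, against 13.1%, or 21.6% after centring. The median for siRNA B was -0.43 without its replicate 2, with 2 genes positive, and 0.16 without its replicate 1, with 28 positive. Each value sets 1 siRNA B array against both control arrays, which breaks a pair. The members' median level in the control arrays was -0.13 and 0.13. In limma 0 members passed in either comparison (0.0161% and 0.185% of all genes did). At an unadjusted p below 0.05 there were 2 for siRNA A, CDC20 and CENPA, both higher, against 4.69% of all genes and 1.05% higher. For siRNA B there were 7, all lower, against 11.3% of all genes and 7.42% lower: TOP2A, NUSAP1, MKI67, CDK1, KIF11, AURKB and CCNA2. For siRNA B the replicate block called 0 members (5.94% of all genes), and the block with centred arrays 3, CCNA2, NUSAP1 and TOP2A (8.8%). Both siRNA A arrays were above and both siRNA B arrays below control for 6, INCENP, KIF23, TPX2, NUSAP1, TOP2A and SMC4, against 1.32% of all genes, or 10 after centring, against 2.66%.

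Among the genes that start mitosis, CDK1 was the member with low values in every SOX9 siRNA array. CDK1, the kinase of the cyclin B complex, had a signal of 2409 and 2265.5 under siRNA A, 2068 and 1947 under siRNA B and 2847.5 and 3048 in control. All 4 SOX9 siRNA arrays were below both control arrays, which held for no other member and for 11.8% of all tested genes, or 9.06% after centring. The log2 fold change was -0.44 (SE 0.19, limma adjusted p = 0.624) for both siRNAs, -0.33 for siRNA A and -0.55 for siRNA B. CCNA2, cyclin A2, which acts from S phase into early mitosis, was at 466 and 589 under siRNA A and 452 and 549 in control, and at 246 and 376 under siRNA B, below both other groups. The mitotic cyclin gene CCNB1 behaved differently, at 1489 and 2347 under siRNA A, 967 and 2024 under siRNA B and 1284 and 1448 in control. Its siRNA B arrays fell on either side of control, and both siRNA A arrays were above it. CCNB2, the second B-type cyclin, was at 1291 and 1563, 813 and 1277, and 1102.5 and 1265 in the same order. Of the phosphatases that activate CDK1, CDC25B was at 433 and 729, 299.7 and 673, and 332 and 409. Its log2 fold change was 0.43 (SE 0.32, limma adjusted p = 0.820) for both siRNAs. It turned to -0.030 without replicate 2 of both, in a fit that kept both control arrays. CDC25C overlapped among all groups, at 392.5 and 336, 255 and 346, and 341 and 356.

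Among the mitotic kinases, PLK1 was above control in all 4 SOX9 siRNA arrays, as was HMMR among the spindle organisers. These were 2 of 49 members, 4.08%, against 4.58% of all genes (9.51% after centring), so members did this no more often than other genes. PLK1, a kinase needed for mitotic entry, centrosomes and chromosome separation, had signals of 53.2 and 83.1 under siRNA A, 37.5 and 60.3 under siRNA B and 36.7 and 36.9 in control. The lowest siRNA B array was only just above control, and the log2 fold change of 0.46 (SE 0.27, limma adjusted p = 0.720) did not pass. These signals are close to the filter level, and the offset shrinks their fold change. FOXM1, the transcription factor of this programme, was at 583.5 and 835 under siRNA A, 322 and 438 under siRNA B and 389 and 531 in control, so the siRNA groups did not overlap. Its difference between the siRNAs was 0.87 (SE 0.31, limma adjusted p = 0.386). AURKA, a centrosomal kinase, was at 1005 and 1504, 651 and 1244, and 1016 and 1086, with groups that overlapped. PLK4, which starts centriole duplication, ran the other way from PLK1 under siRNA B, at 134 and 180.3 against 183 and 258 in control, and was at 216 and 203 under siRNA A. NEK2, a centrosome kinase, was at 737 and 685, 444 and 826, and 513 and 638.

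The 5 spindle checkpoint genes were all higher under siRNA A than under siRNA B, and all 5 had a negative fold change under siRNA B, with a median difference between the siRNAs of 0.58. MAD2L1, the checkpoint protein that inhibits CDC20, was at 2882 and 3016 under siRNA A, 1656 and 2198 under siRNA B and 2203 and 2979 in control. Its siRNA B arrays were both below control, by a small margin for replicate 2. TTK, the kinase that recruits the checkpoint to kinetochores, was at 675 and 785, 361.5 and 554, and 534 and 661. BUB1B was at 665 and 878, 436 and 584, and 488 and 725.5, and BUB1 at 421 and 562, 273 and 451, and 355 and 396. These are the BubR1 and Bub1 proteins of the checkpoint, and only BUB1 overlapped between the siRNAs. BUB3, their binding partner, differed least, at 2611 and 2516, 1953 and 2506, and 2357 and 2759.

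In the chromosomal passenger complex, which corrects kinetochore attachments and guides cytokinesis, INCENP and AURKB set the siRNAs apart. INCENP, the scaffold, was at 64 and 62.1 under siRNA A, 28.3 and 29.8 under siRNA B and 38.4 and 42.1 in control. Arrays of a group were close to each other, and the 3 groups did not overlap. Signals of AURKB, the kinase, were 131 and 153, 93.3 and 102, and 129.7 and 207, and the fold change for both siRNAs was -0.43 (SE 0.25, limma adjusted p = 0.721). Here siRNA B was below both other groups, and siRNA A lay within the control range. CDCA8 (borealin) was at 252 and 361, 155.5 and 318, and 174 and 209.5, a log2 fold change of 0.42 (SE 0.29, limma adjusted p = 0.798). BIRC5 (survivin) was at 1135 and 1508.5, 756 and 1329, and 899 and 1194, and in both genes siRNA B spanned the control range.

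Kinetochore and centromere genes had the highest median under siRNA A among the role groups of more than 2 genes, 0.52. CENPA, the histone that marks centromeres, was at 251 and 336 under siRNA A, 143.5 and 187 under siRNA B and 180.0 and 172 in control. Both siRNA A arrays were above all others, and siRNA B spanned control. CENPE, a kinetochore motor, ranged from 266 to 510.2 under siRNA A and from 175 to 385 under siRNA B, with 205.5 and 258 in control. CENPF was at 489 and 635, 242 and 488, and 287 and 412. The siRNA B replicates of both genes lay on either side of the controls. Of the NDC80 complex, which holds microtubule ends, NUF2 was at 597 and 612 under siRNA A, 360.2 and 438 under siRNA B and 412 and 522 in control, without overlap of the siRNAs. NDC80 was at 447.5 and 592, 290.1 and 496, and 337.5 and 446, and SPC25 at 244.5 and 349, 155.5 and 243, and 227 and 286.

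The 6 kinesins were all higher under siRNA A than under siRNA B, with a median difference of 0.66. KIF23 and KIF11 were below control in both siRNA B arrays, 2 of 6, where 26.2% of all genes were. KIF23, the motor of the central spindle, was at 443 and 501 under siRNA A, 228 and 262 under siRNA B and 303 and 426 in control, so the 3 groups did not overlap. Its difference between the siRNAs was 0.90 (SE 0.29, limma adjusted p = 0.311), called once the replicate number was a block (limma adjusted p = 0.0446). KIF11, which pushes spindle poles apart, was at 744 and 702, 427 and 406, and 593 and 763. KIF14, a cytokinesis motor, was at 377.5 and 602, 218 and 417, and 263 and 314. Its fold change for both siRNAs was 0.38 (SE 0.29, limma adjusted p = 0.827). It was -0.0024 without replicate 2 of both, in a fit that kept both control arrays. KIF20A was at 934 and 1288, 647 and 1208, and 798 and 783. In KIF14 and KIF20A the siRNA B arrays lay on either side of control. KIF4A, a chromosome-bound motor, was at 516 and 714, 281 and 486, and 317 and 434.5, and KIF2C, which removes wrong attachments, at 587 and 730.1, 374 and 613, and 533.5 and 559.9.

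Among spindle organisers, NUSAP1 and TPX2 separated the siRNAs and HMMR did not. NUSAP1, which bundles microtubules near chromosomes, was at 2099.8 and 1972 under siRNA A, 1158 and 1172 under siRNA B and 1781 and 1971 in control. Its siRNA B arrays were far below the rest, while siRNA A just exceeded control, and the fold change for both siRNAs was -0.28 (SE 0.21, limma adjusted p = 0.824). TPX2, an activator of Aurora A, was at 473 and 696, 289 and 347, and 369.6 and 421. HMMR, a hyaluronan receptor that also acts at spindle poles, was at 1038 and 892.5, 702.5 and 1123, and 639 and 688.5, above control in all 4 SOX9 siRNA arrays. In its other probe set replicate 1 of siRNA B, at 230, lay between the controls, at 269.2 and 227.7. The HMMR fold change was 0.47 (SE 0.26, limma adjusted p = 0.702) for both siRNAs and 0.41 for siRNA B, the highest of any member with that siRNA. DLGAP5 was at 811 and 1116, 440.4 and 735, and 621 and 655, and ASPM, a spindle pole protein, at 825.5 and 1056, 533 and 724, and 664 and 727. Neither overlapped between the siRNAs. PRC1, which bundles the central spindle, was at 1891 and 2314, 1211 and 1936, and 1428 and 1706.

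The cytokinesis genes ANLN and ECT2 had positive fold changes with each siRNA in the probe sets used. ANLN, anillin of the contractile ring, was at 645 and 1051 under siRNA A, 421 and 984 under siRNA B and 465 and 621 in control. Its log2 fold change for both siRNAs was 0.43 (SE 0.32, limma adjusted p = 0.824). It was -0.043 without replicate 2 of both, in a fit that kept both control arrays. ECT2, the exchange factor that turns on RhoA, was at 1987 and 2479, 1418 and 2209.5, and 1432 and 1748, a fold change of 0.32 (SE 0.24, limma adjusted p = 0.820). In both genes replicate 1 of siRNA B was just below control and the other SOX9 siRNA arrays were above it. The other ECT2 probe set above the filter was at -0.13 under siRNA B and 0.04 for both siRNAs. That of ANLN was at 0.15 under siRNA B.

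Genes of chromosome structure were the lowest group under siRNA B, with a median of -0.47 and all 4 negative. MKI67, the Ki-67 proliferation antigen that coats mitotic chromosomes, was at 167.5 and 256 under siRNA A, 78.0 and 112 under siRNA B and 159 and 171 in control. The siRNA B arrays were below both other groups, replicate 1 of siRNA A lay within the control range and its replicate 2 was above. Its difference between the siRNAs was 1.03 (SE 0.29, limma adjusted p = 0.241), called once the replicate number was a block (limma adjusted p = 0.0103), and its fold change under siRNA B was -0.72. TOP2A, topoisomerase II alpha, which untangles chromosomes, was at 3923 and 3788 under siRNA A, 2481 and 2206 under siRNA B and 3490.4 and 3613 in control. The 3 groups did not overlap, the fold change under siRNA B was -0.60, and that for both siRNAs was -0.24 (SE 0.18, limma adjusted p = 0.824). SMC4, a condensin subunit, was at 3625 and 3738, 2223 and 2882.5, and 2913 and 3556.5. NCAPG, another condensin subunit, was at 494 and 742, 364 and 584, and 429 and 557, with groups that overlapped.

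The genes of mitotic proteolysis had positive fold changes for both siRNAs in 5 of 5, and CDC20 had the highest of all members. CDC20, the activator of the APC/C, was at 463 and 998 under siRNA A, 261.5 and 728 under siRNA B and 303 and 351 in control. Replicate 1 of siRNA B was below control, the other SOX9 siRNA arrays were above it, and the replicate 2 arrays were far above. The log2 fold change was 0.72 (SE 0.37, limma adjusted p = 0.680) for both siRNAs and 1.03 (SE 0.42, limma adjusted p = 0.992) for siRNA A, called once the replicate number was a block (limma adjusted p = 0.0211), as 1 of 49 members against 1.79% of all genes, or 1.7% with centred arrays. It was 0.49 for siRNA A without its replicate 2 and 1.57 without its replicate 1, each against both control arrays. UBE2C, the ubiquitin-conjugating enzyme of the APC/C, was at 1506.5 and 2105, 1038 and 1850.0, and 1352 and 1419. PTTG1, securin, was at 1443 and 1855, 1144 and 1729.8, and 1310.2 and 1398. In both genes replicate 1 of siRNA B was below control and its replicate 2 above. ESPL1, the protease separase, was at 511 and 679, 295 and 410.2, and 363 and 517, without overlap of the siRNAs. CDCA3, a trigger of mitotic entry, was at 631 and 840.5, 412 and 826, and 504 and 554.

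**Figure D3:**
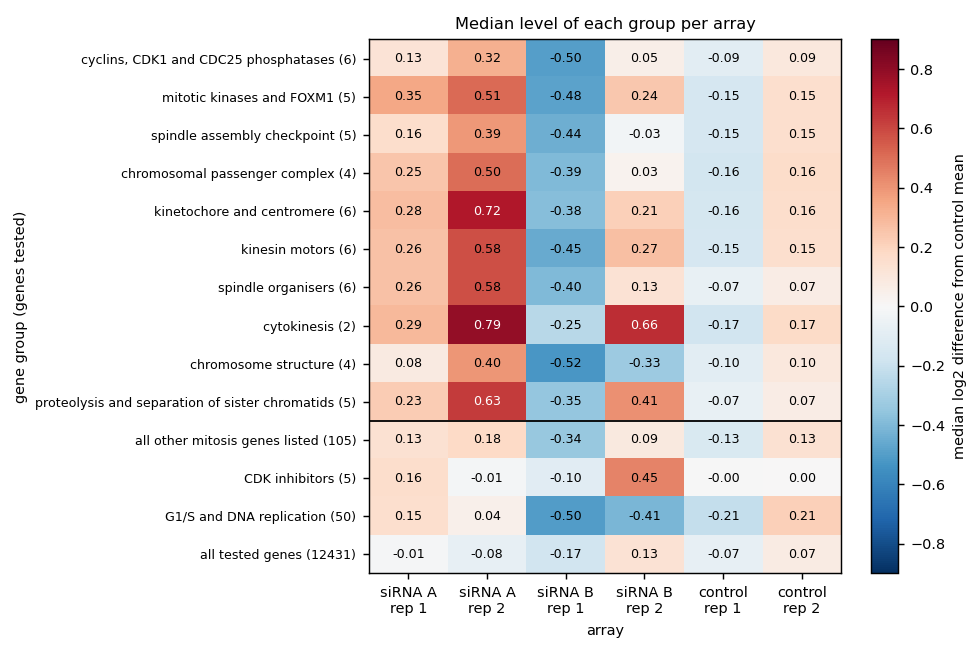
Median log2 difference from the control mean (colour and printed value) of each gene group (rows, with the number of genes tested) in each array (columns); the rows above the line are the 10 role groups of the 49 genes. Every role group is lowest in replicate 1 of siRNA B and highest in replicate 2 of siRNA A, while G1/S and DNA replication genes are low in both siRNA B arrays, at -0.50 and -0.41.

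Within each SOX9 siRNA the duplicate arrays differed, and the members differed in how much. Replicate 2 exceeded replicate 1 for 39 of 49 genes under siRNA A (42.5% of all genes), 46 under siRNA B (73.8%) and 47 in control (71.8%). With arrays centred on their medians these were 39 (43.9%), 43 (60.9%) and 37 (57.6%). The median difference was 0.39 under siRNA A, 0.59 under siRNA B and 0.25 in control, against -0.07, 0.31 and 0.14 over all genes. CDC20 had the widest gap, 1.08 and 1.42 under siRNA A and siRNA B and 0.20 in control. CENPE (0.90 and 1.07), ANLN (0.69 and 1.19), CDC25B (0.73 and 1.13) and CCNB1 (0.65 and 1.05) followed. TOP2A (-0.05 and -0.17), CDK1 (-0.09 and -0.09) and KIF11 (-0.08 and -0.07) were lower in replicate 2 with both siRNAs. The duplicates thus lay far apart for CDC20 and close together for TOP2A, CDK1 and KIF11. Nothing in the labels says what the replicate numbers stand for, and what differs between them was not tested.

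**Figure D4:**
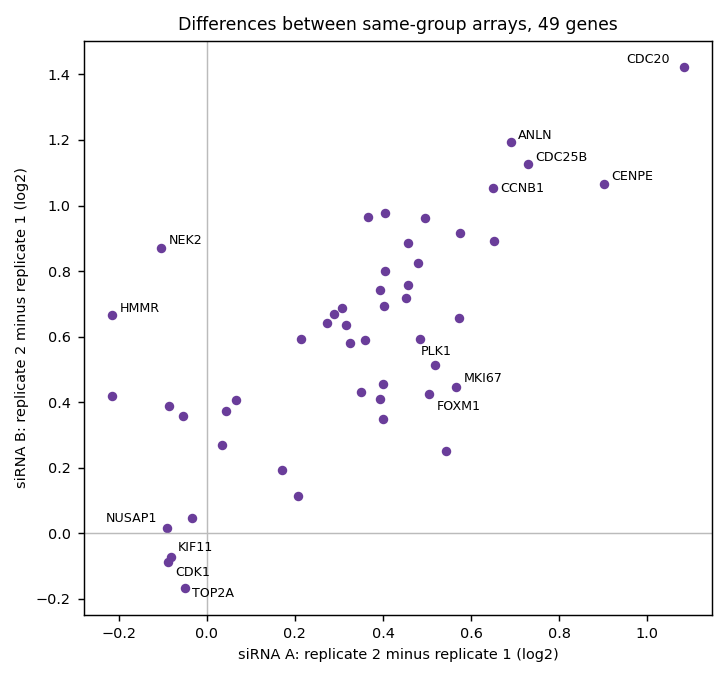
Difference between replicate 2 and replicate 1, as log2(signal + 16), under siRNA A (x axis) and siRNA B (y axis) for each of the 49 genes, 14 of them named. CDC20 is at 1.08 and 1.42, and CDK1, KIF11 and TOP2A are below 0 on both axes.

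Other probe sets of the same genes, which the choice of 1 probe set per gene left out, gave a second reading. Of 51 such probe sets, 38 of 26 genes passed the filter. The difference between the siRNAs was positive in 37 of 38, with a median of 0.35. Against control, 28 of 38 were positive under siRNA A (median 0.24) and 6 of 38 under siRNA B (median -0.23). For both siRNAs 20 of 38 were positive, with a median of 0.02. The difference between the siRNAs was thus seen in nearly all of these probe sets, and the joint value was near 0.

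Further genes of mitosis and its control came from lists of 109 genes, 105 of them tested. In limma 0 of the 105 were called in any of the 4 comparisons, where 0.0161% to 0.185% of all genes were. At such shares a list of this size would hold hardly any calls. With the replicate block 5 were called under siRNA B, all lower, CENPM, KNTC1, RBBP4, SKA3 and TFDP1, against 5.94% of all genes. Of the 105, 85 had a higher mean under siRNA A than under siRNA B, with a median difference of 0.36, and 55 were positive for both siRNAs, with a median of 0.02. Spindle and cytokinesis genes outside the 49 were higher under siRNA A in 16 of 17, and kinetochore and centromere genes in 27 of 29. CENPM, a kinetochore protein, had the widest gap of those named, at 324 and 392 under siRNA A, 132 and 86.3 under siRNA B and 282.5 and 396 in control. Its difference of 1.60 (SE 0.30, limma adjusted p = 0.0602) did not pass. Condensin and cohesin genes (10 of 15) and APC/C genes (11 of 16) had median differences of 0.19 and 0.08. DREAM and MuvB genes were higher under siRNA A in 8 of 11, among them RBBP4 and TFDP1, at -0.79 and -0.88 under siRNA B. CDKN1C, an inhibitor of cyclin-dependent kinases, ran the other way, at 248 and 122 under siRNA A, 473 and 473 under siRNA B and 289 and 255 in control. Its difference between the siRNAs was -1.36 (SE 0.32, limma adjusted p = 0.158), and with the replicate block it was called, as were CENPM, CENPU and SKA3 in the other direction, 4 of 105 against 2.9% of all genes.

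Genes of the G1/S transition and DNA replication were also higher under siRNA A than under siRNA B. Both siRNA A arrays were above both siRNA B arrays for 38 of the 50 tested, against 26 of the 49 mitosis genes and 15.7% of all genes. With the replicate block 5 of the 50 differences were called, DTL, MCM2, MCM3, MCM5 and TYMS, against 2.9% of all genes. Of 50 tested, 46 were higher under siRNA A than under siRNA B, with a median difference of 0.52, and 47 were negative under siRNA B, with a median of -0.46. Under siRNA A 34 were positive, with a median of 0.11, so both lists had a positive median under siRNA A and a negative one under siRNA B. Their levels were -0.50 and -0.41 in the siRNA B arrays, where the 49 mitosis genes were at -0.43 and 0.16. The gap between the duplicates of siRNA B was 0.20 in the replication genes and 0.59 in the mitosis genes, and that of siRNA A -0.10 and 0.39. In control the order was the reverse, 0.43 in the replication genes and 0.25 in the mitosis genes. These differences between the lists were not tested. CDT1, which loads the replicative helicase, was at 244 and 133.5 under siRNA A, 125 and 76.3 under siRNA B and 233 and 241 in control, and POLD3, a DNA polymerase subunit, at 365 and 252, 188 and 146, and 360.4 and 385.5. In both genes replicate 2 was the lower array of each SOX9 siRNA, the opposite of CDC20.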

How the data were processed

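The authors deposited 1 signal intensity per probe set and array on a linear scale. Per the submitters' processing notes it came from MAS5; neither its version nor its target level was named. The table held 54675 probe sets; 62 control probe sets were left out. Of the rest, 41091 had 1 gene symbol in the annotation table, 1801 several and 11721 none. Analysis used log2(signal + 16) on the deposited scale, so fold changes of dim genes are understated. A gene took its probe set with the highest mean, and 7344 dim genes were not tested, those averaging under a signal of 22, that of the median probe set. limma 3.58.1 in R 4.3.3 fitted the 3 groups over all 6 arrays, with an intensity trend and Benjamini-Hochberg adjustment over 12431 genes, two-sided, and a call at 0.05. The fit was run on simulated data with independent errors and no effect of the replicate number. Real arrays of the same number deviated together, so that run cannot show how the fit does with such arrays. The number of arrays limits the precision, and the p-values measure the spread between duplicates. Members and lists were chosen with earlier results of these data known. Fold changes were stated for the 12 members with the smallest p for both siRNAs, for the widest gaps between the siRNAs and for others singled out after their values were seen.

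Same-numbered arrays deviated together from their group means, with a correlation of 0.63 between siRNA A and siRNA B and 0.18 between each of them and control over the tested genes. Each was above 0.1, and on that basis, from the data and not from the labels, same numbers were treated as pairs. The fit without the block stayed the first one. In the block fit limma took all spread from the intensity trend, and its p-values can be too small. Alternatives changed the offset, scaling, filter, probe set rule, eBayes settings, samples fitted, block and threshold, and left out arrays. Counts of positive fold changes and the comparison within replicate numbers were added after the data were seen.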

Additional observations from a re-analysis of the deposited data

Results flagged for a closer look

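For 6 of the 49 genes, both siRNA A arrays were above and both siRNA B arrays below both control arrays, in opposite directions in every array; 1.32% of all tested genes did the same. Their log2 differences between siRNA A and siRNA B were 0.81 for INCENP, 0.90 for KIF23, 0.83 for TPX2, 0.80 for NUSAP1, 0.72 for TOP2A and 0.54 for SMC4. In limma none of these 6 differences passed, with adjusted p from 0.261 to 0.534. With the replicate block, the difference passed for KIF23, where 2.9% of all genes passed, and with the block and median centring for each of the 6 but INCENP, where 4.83% did. The genes were picked for this pattern, so these calls do not support it. It also belongs to the probe set used for each gene. Another probe set above the filter repeated it for NUSAP1, but none did for SMC4, TOP2A or KIF23. INCENP and TPX2 had no other probe set. In 1 of SMC4, siRNA B was above control, at 64.9 and 95.9 against 43.3 and 42.1. In the brightest other one of TOP2A, siRNA A lay within the control range, at 2555.9 and 2349.7 against 2239 and 2629.6. A dim one of TOP2A missed the pattern only by a tie at 29.3. It was at 38.6 and 40.4 under siRNA A, 26.6 and 29.3 under siRNA B and 29.3 and 31.1 in control.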

How the results depend on the processing

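Of 584 alternative values for the 28 member fold changes given, 580 kept their direction. The exceptions for both siRNAs were CDC25B (-0.030), ANLN (-0.043) and KIF14 (-0.0024), each without replicate 2 of both. That fit kept both control arrays, so replicate 1 of the siRNAs was set against controls of both numbers. Between the siRNAs the exception was HMMR (-0.22) without siRNA B replicate 1, with 0.45 as its highest value over left-out arrays. The cause was not tested for any value here. All 49 genes were higher with siRNA A than with siRNA B, except for 47 without siRNA A replicate 2 and 35 without siRNA B replicate 1. With the median over probe sets only 47 members passed the filter, and all 47 were higher. The median difference was 0.19 to 0.80 over left-out arrays.

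Genes called for both siRNAs against control, 5 at first, were 10 at a threshold of 0.1, 3 and 11 at offsets of 1 and 64, 9 with the stricter filter, 1 without trend, 0 with quantile normalization, median centring, a common trimmed mean, no filter or the SOX9 siRNA arrays as 1 group, and 0 to 62 over left-out arrays. Without replicate 2 of both siRNAs they were 0, with 11 members positive and a median of -0.13, and without replicate 1 of both 586, with 1 member called (CDC20) and a median of 0.38. Both of these fits kept both control arrays. Over single left-out arrays 22 to 40 members were positive, with medians from -0.025 to 0.27. For siRNA A, 2 at first, 1 was called with median centring or the median over probe sets, 0 with the other scalings or no filter, and 0 to 18 over left-out arrays. For siRNA B, 23 at first, 44 were called at 0.1, 14 without trend, 8 with only the groups compared, 0 with any of the 3 scalings or no filter, and 0 to 1002 over left-out arrays, with 0 to 1 members called, 2 to 28 positive and medians from -0.43 to 0.16. Between the siRNAs, 12 at first, 28 were called at 0.1, 7 at an offset of 1, 4 with the median over probe sets, 6 without trend, 25 with robust eBayes, 56 with only the groups compared, 0 with any of the 3 scalings or no filter, and 0 to 291 over left-out arrays, with 0 to 1 members called.

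With the replicate block, 439 genes were called for both siRNAs, 223 for siRNA A, 739 for siRNA B and 361 between them, with 0, 1, 0 and 2 members. With the block and median centring these were 567, 211, 1094 and 600, with 1, 1, 3 and 15 members. Duplicate arrays limit every comparison, and signals near the filter, such as PLK1 and INCENP, have compressed fold changes.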
